A study of Bos taurus with 9 samples.

Results

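This comparison sets bovine morulae against bovine 8-cell embryos, all of them clones obtained by somatic cell nuclear transfer (SCNT), the replacement of an egg's nucleus with that of a body cell. The morula group is 3 libraries of uninjected embryos, the controls of an experiment in which other clones received mRNA for the histone demethylase KDM6A, and the earlier group is 3 control 8-cell libraries. These are 6 of the 9 libraries in the series. All embryos of the series are labelled Holstein. The labels describe donor fibroblasts from a single female fetus, starved of serum and fused with oocytes whose own chromosomes had been removed, then activated with ionomycin and a second agent and cultured in mSOFaa medium; they carry the same protocol for both stages. Each morula library came from a pool of 5 embryos collected on day 5 after activation, sequenced as paired 150 bp reads. The design text says that the 8-cell libraries were taken from an earlier deposited series; their pool size, day and read length are not given apart from the morula protocol, so in every value below the stage and the series of origin cannot be told apart. Nothing in the labels says that the replicates came from separate cultures, so the tests measure only the spread between these libraries, which may be technical. Genes were joined by identifier over the 16129 genes listed for both groups, and the 10048 with at least 1 FPKM (fragments scaled to transcript length and library size) in at least 3 of the 6 libraries were compared.

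A bovine embryo begins development on RNA stored in the egg. Around the 8-cell stage its own genome becomes broadly active, stored transcripts are removed, and the embryo then compacts into a morula, in which cells form junctions, acquire an inner and an outer face and start to separate the future trophectoderm from the inner cell mass. In a clone the newly active genome is that of a fibroblast, which must be read as an embryo's.

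The files list 9471 to 9757 genes at 1 FPKM or more in the morula libraries and 8923 to 9167 in the 8-cell libraries. Read depth is unknown, because the values are FPKM. Libraries of a group resembled each other more than those of the other group: Pearson's r across the tested genes, on log2(FPKM + 1), was 0.70 to 0.82 between the stages, against 0.98 to 0.99 among the morula libraries and 0.96 to 0.97 among the 8-cell libraries. The median coefficient of variation was 15.7% in morulae and 24.9% in 8-cell embryos. In pooled embryos, fewer cells of a type and less RNA per cell cannot be told apart.

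In morulae 4293 genes were higher and 2719 lower than in 8-cell embryos, by limma on log2(FPKM + 1) with a Benjamini-Hochberg adjusted p under 0.05, and 3036 were not called. These are 42.7% and 27.1% of the genes tested, 69.8% in all, and 74.5% of the genes had groups that did not overlap. A change of at least 1 log2 unit was found in 3346 of the genes called higher and 1970 of those called lower, and one of at least 5 log2 units in 36 and 33. Of the genes tested, 7125 reached 1 FPKM in all 6 libraries, and of these 2683 were higher and 1894 lower. A further 864 passed the filter through the 3 morula libraries alone and 490 through the 3 8-cell libraries alone, which leaves them little room but to differ. Of genes named below, PLIN3, GLB1 and CCND2 are among the former and TAF7L is among the latter. At the edge of the filter, POLL had a third-highest value of 1 FPKM and was kept, whereas ARHGEF2 at 0.99 FPKM was not.

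The balance of calls depends on how the libraries are put on a common scale. The median of all tested genes was 0.35 log2 units higher in morulae on the values as deposited, and 61.2% of calls were in that direction. After quantile normalization that median was 0.033 and 3516 genes were higher against 3412 lower, or 50.8% of calls. After median-of-ratios scaling it was 0.064, with 3583 higher and 3355 lower, or 51.6%. A gene list is therefore read below against a median of 0.35 and against the shares of all genes called, not against 0. The plot of all genes by stage shows the breadth of the change, and the plot of gene lists shows which groups of genes it took in each direction.

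**Figure D1:**
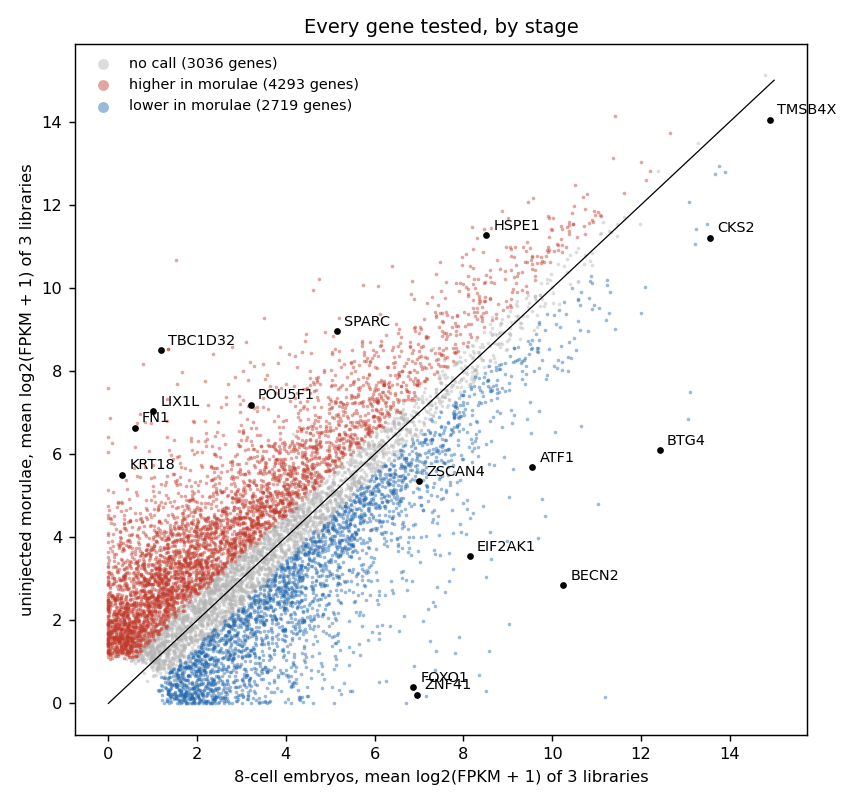
Each point is a gene, placed by its mean log2(FPKM + 1) over the 3 8-cell libraries (horizontal) and over the 3 uninjected morula libraries (vertical); red points were called higher in morulae (4293), blue points lower (2719), grey points had no call (3036), and the line marks equal levels. TBC1D32 and FOXO1 lie far from the line on opposite sides, whereas BTG4 is still above 6 on the morula axis.

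**Figure D2:**
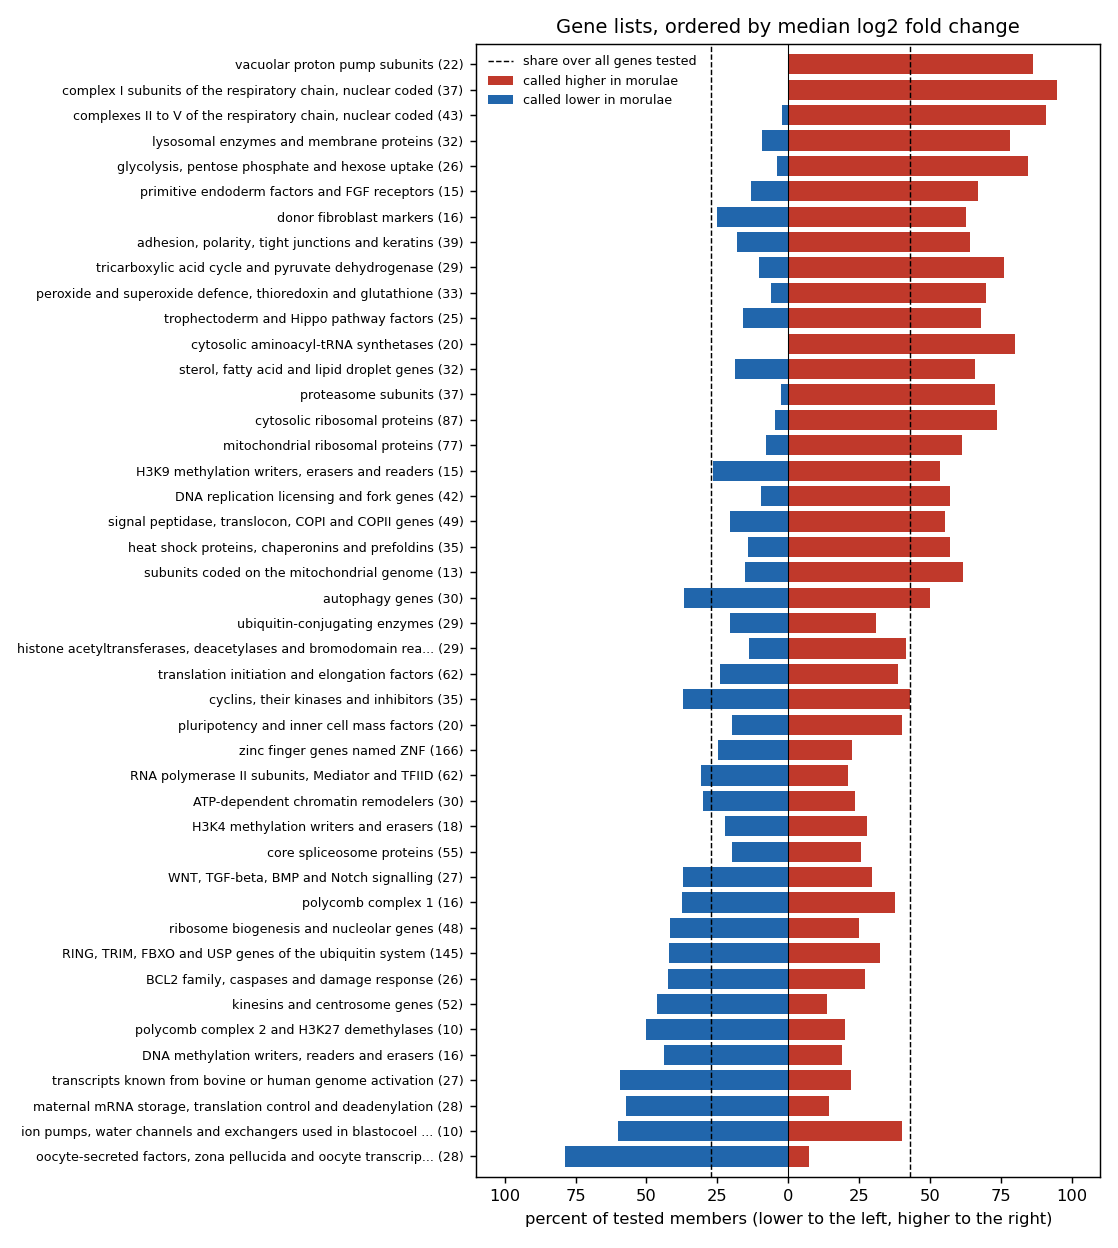
Each bar pair is a list of genes, with the number tested in brackets: the share called higher in morulae runs right, the share called lower runs left, and dashed lines mark the shares over all genes tested (42.7% and 27.1%). Lists are ordered by their median log2 fold change, with the proton pump, respiratory chain and lysosome lists at the top and the oocyte list at the bottom.

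The genes with the strongest statistics lay far apart between the stages. TBC1D32, a gene of cilium biology, was at 361, 351 and 369 FPKM in the 3 morula libraries and at 0.68, 2.37 and 1.04 FPKM in the 8-cell libraries, a log2 fold change of 7.32 ± 0.26 (SE, adjusted p = 1.9e-07). ZNF41, a zinc finger gene, was at 0.41, 0.09 and 0 FPKM in morulae and at 129, 115 and 123 FPKM in 8-cell embryos, a change of -6.74 ± 0.23 (adjusted p = 1.6e-07). Both were chosen for their statistics, so the gap between their groups is a description, and ZNF41 passed the filter through the 8-cell libraries alone.

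The other leading genes that rose were of mixed function. LIX1L stood at 127, 117 and 145 FPKM in morulae against 0.42, 1.56 and 1.23 (6.02 ± 0.26), and PERP, a desmosome-associated membrane protein, at 93.6, 133 and 106 FPKM against 3.84, 3.03 and 3.73 (4.61 ± 0.22). TPM4, a tropomyosin of the actin cytoskeleton, rose from 17.4 ± 1.76 to 329 ± 40.8 FPKM (mean ± SD, n = 3). The row named BOVAGGRUS in the morula files and PDPN in the 8-cell files, podoplanin, rose from 1.55 ± 0.516 to 159 ± 19.7 FPKM. The leading genes in that direction also include PDXK, the kinase that makes active vitamin B6, at 145 ± 12 against 3.76 ± 0.626 FPKM.

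The genes with the strongest statistics among those that fell were of mixed function. ATF1, a CREB-family transcription factor, was at 709, 742 and 804 FPKM in 8-cell embryos and at 53.7, 43.1 and 54.8 FPKM in morulae (-3.88 ± 0.17). EIF2AK1, the haem-regulated kinase that slows translation initiation, went from 263, 323 and 262 FPKM to 10.9, 10.1 and 11.1 FPKM (-4.60 ± 0.18). FAM46C, now known as the poly(A) polymerase TENT5C, was at 43.3, 44.5 and 45 FPKM in 8-cell embryos and under 1 FPKM in every morula library (-5.21 ± 0.24). ATF1, EIF2AK1 and FAM46C were chosen for their statistics among genes whose groups did not overlap, so the gap between their groups is a description. FAM46C passed the filter through the 8-cell libraries alone. FOXO1, a transcription factor downstream of insulin signalling, also passed through those libraries alone and fell by 6.48. TAF9, a subunit of the general factor TFIID, fell by 5.47.

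Among the most abundant nuclear-coded transcripts, those that led in 8-cell embryos were mostly lower in morulae. They were chosen for their level in 8-cell embryos, which by itself favours a lower value in morulae, so this is a description. TMSB4X, a thymosin that binds actin monomers and the most abundant of all in both stages, had a mean of 31372 FPKM in 8-cell embryos and 16935 FPKM in morulae (-0.87 ± 0.21, adjusted p = 0.0045). CKS2, a small partner of cyclin-dependent kinases, was at 11693, 13290 and 11369 FPKM in 8-cell embryos and at 2531, 2118 and 2448 FPKM in morulae (-2.36 ± 0.17). The replacement histone genes H2AFZ (H2A.Z) and H3F3A (H3.3) fell by 1.94 and 2.17, from 11490 and 9580 FPKM to 2989 and 2141 FPKM. Those 3 genes had no overlap between the groups, as was the case for 74.5% of all genes tested. Of the 10 most abundant nuclear-coded transcripts of morulae, 5 were called higher (COX7A2, NDUFA4, RPS27A, RPL10 and RPS3, of the respiratory chain and the ribosome), 4 lower (TMSB4X, TMSB10, SKP1 and UBB) and 1 neither (RPS25, at 7215 against 5368 FPKM, 0.44 ± 0.19). The call of RPS27A was lost under median-of-ratios scaling, and that of TMSB10 with no filter and without morula replicate 1 or 2. Another thymosin row, TMSB4, had a log2 fold change from -8.03 to -7.17 over the alternative fits. COX7A2 rose from 1466 ± 138 to 5823 ± 1338 FPKM and RPS3 from 775 ± 195 to 4575 ± 126 FPKM. Of the 100 most abundant nuclear-coded genes of each stage, 52 were shared.

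Of the 48 lists examined, that of oocyte transcripts had the largest share of genes lower in morulae. Of 28 tested genes of the list for oocyte-secreted factors, zona pellucida proteins and oocyte transcription factors, 22 fell and 2 rose, with a median log2 fold change of -2.48. BMP15, a growth factor secreted by the oocyte, was at 212, 206 and 227 FPKM in 8-cell embryos and at 34.1, 1.00 and 10.9 FPKM in morulae (-4.52 ± 0.79, adjusted p = 0.0006). GDF9, its close relative, was at 25.4, 28.4 and 21.2 FPKM and then at 7.57, 1.28 and 3.43 FPKM (-2.55 ± 0.42). The 8-cell libraries were nearly level for these genes, and the 3 morula libraries were spread far apart. NPM2, a histone chaperone of the egg, fell by 4.54, BCL2L10, a BCL2-family member of the oocyte, by 4.60, and H1FOO, the oocyte linker histone, by 2.72. KPNA7, the oocyte form of importin alpha, fell from 103, 96 and 149 FPKM to 30.3, 2.03 and 3.89 FPKM (-3.89 ± 0.69), whereas KPNA2, the somatic form, rose from 199 ± 27.8 to 321 ± 19.5 FPKM (0.69 ± 0.18, adjusted p = 0.0055), a call lost under median-of-ratios scaling.

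The genes of the oocyte list that rose were BUB1B, a spindle checkpoint kinase (1.09), and OTX2, a homeobox factor, at 51.8, 70.3 and 44.2 FPKM in morulae against 3, 1.61 and 1.77 FPKM (4.17 ± 0.27). DPPA3, a maternal factor that protects DNA methylation, fell by less than the list's median, from 1179, 1875 and 1799 FPKM to 635, 374 and 552 FPKM (-1.64 ± 0.25). It was still an abundant transcript in every morula library.

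Most called genes for the storage, repression and deadenylation of maternal mRNA were also lower. Of 28 tested genes, 16 fell and 4 rose (median -0.65). BTG4, the adaptor that brings the CCR4-NOT deadenylase to maternal mRNAs, was at 3360, 8658 and 5716 FPKM in 8-cell embryos and at 374, 8.35 and 90.4 FPKM in morulae (-6.33 ± 1.03, adjusted p = 0.0004). It was among the 10 most abundant nuclear-coded transcripts of the 8-cell embryos. CPEB1, which controls cytoplasmic polyadenylation, fell by 3.05, ZAR1L, a binder of maternal mRNA, by 4.00 and EIF4E1B, the oocyte cap-binding protein, by 3.03. CNOT1, the scaffold of the deadenylase, rose from 33.3 ± 5.92 to 56.1 ± 7.59 FPKM (0.74 ± 0.21, adjusted p = 0.0099), but not past the threshold under median-of-ratios scaling, and PAN2, the catalytic subunit of the other deadenylase, rose from 1.55 ± 0.732 to 14.6 ± 3.62 FPKM (2.63 ± 0.30).

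The 3 morula pools were not alike in what was left of these transcripts, as the plot of oocyte and early embryo transcripts shows. Of the 22 oocyte genes called lower, 20 had their highest morula value in replicate 1 and 16 their lowest in replicate 2. For the storage and deadenylation list these numbers were 13 and 12 of 16. Over all genes called lower, replicate 1 was the highest morula library in 65.9%, and over all genes tested in 45.2%. Without morula replicate 1 the oocyte list still had 22 genes lower and 2 higher, and the storage and deadenylation list had 13 lower and 4 higher. The summed FPKM of the oocyte list was 0.0619% to 0.102% of the total in morulae and 0.363% to 0.778% in 8-cell embryos.

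**Figure D3:**
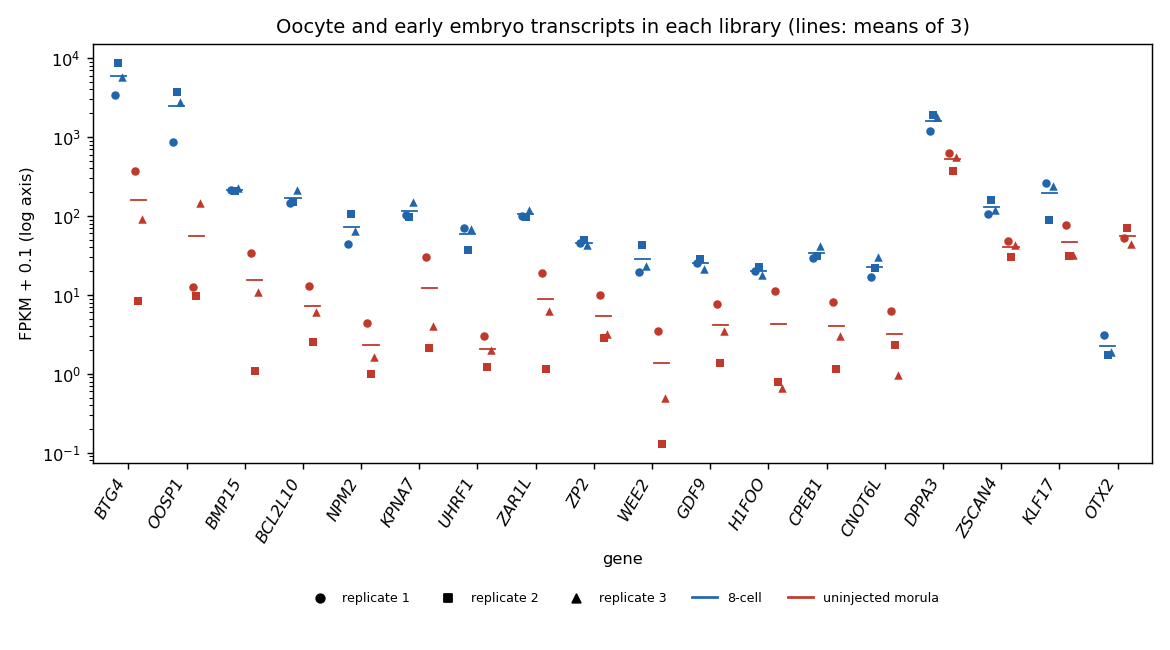
Points give FPKM + 0.1 on a log axis in each of the 3 8-cell libraries (blue) and 3 uninjected morula libraries (red), with the marker shape for the replicate and a line at the mean. Morula replicate 1 (circles) lies above replicates 2 and 3 for BMP15, KPNA7, ZAR1L and H1FOO, and OTX2 is the gene shown here whose morula libraries are all above the 8-cell libraries.

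Genes known from the activation of the embryonic genome were more often lower than higher in morulae. Of 27 tested, 16 were lower and 6 higher in morulae (median -0.60). ZSCAN4, a marker of the cleavage-stage genome activation, fell from 106, 159 and 120 FPKM to 48.5, 30.4 and 42.5 FPKM (-1.65 ± 0.23, adjusted p = 0.00017). KLF17, a Kruppel-like factor of the early embryo, fell from 263, 88.5 and 239 FPKM to 77.3, 30.6 and 32.4 FPKM (-2.03 ± 0.45). For both, every 8-cell library was above every morula library, although 8-cell replicate 2 and morula replicate 1 came near each other for KLF17. Groups without overlap made up 74.5% of all genes tested. GABPA, an ETS factor, fell by 1.82. PDHX, a structural component of pyruvate dehydrogenase, and EIF4EBP1, a repressor of cap-dependent translation, were on the list's other side, at 20.4 ± 1.5 against 2.89 ± 1.15 FPKM and 39.7 ± 9.6 against 10.6 ± 9.30 FPKM.

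The pluripotency list was called in both directions, with neither share above that of all genes tested. The shares were 40% higher and 20% lower, against 42.7% and 27.1% over all genes. Of 20 tested genes 8 rose and 4 fell, with a median of 0.14 that became -0.19 under quantile normalization, where 8 rose and 8 fell. ESRRB, an orphan nuclear receptor of the pluripotency network, rose from 6.95, 2.91 and 5.62 FPKM to 28.7, 40 and 31.6 FPKM (2.53 ± 0.29), beside POU5F1 at 3.98 ± 0.23. KLF4 went the other way, from 219 ± 20.8 to 133 ± 30.5 FPKM (-0.74 ± 0.21, adjusted p = 0.0099), beside NANOG at -0.98 ± 0.24, ETV5 at -1.01 and DPPA3, which is on this list too, at -1.64 ± 0.25. The groups did not overlap for ESRRB or KLF4, as for 74.5% of all genes tested.

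Genes of the trophectoderm and of the Hippo pathway, which directs outer cells to that lineage, rose more often: 17 of 25 tested were higher and 4 lower (median 1.29). KRT18 and KRT8, keratins of simple epithelium, were under 1 FPKM in every 8-cell library and at 31.8, 41.7 and 66.2 FPKM and 17.3, 12.3 and 21 FPKM in morulae (5.19 ± 0.30 and 3.86 ± 0.28). PTGES, a prostaglandin E synthase, rose from 4.12, 0.52 and 1.04 FPKM to 101, 124 and 105 FPKM (5.46 ± 0.39). These 3 genes were picked for the size of their change, so the gap between their groups is a description. KRT18 and KRT8 passed the filter through the morula libraries alone. TEAD4, the DNA-binding partner of the Hippo effector, rose from 7.30 ± 1.92 to 45.1 ± 2.84 FPKM (2.50 ± 0.23), and YAP1, the effector itself, from 7.63 ± 1.19 to 15.4 ± 1.99 FPKM (0.93 ± 0.23). The members that fell were EOMES, FABP5, TFAP2C and LATS1. EOMES, a T-box factor, was listed at 0, 0.02 and 0 FPKM in morulae after 9.96, 5.71 and 6.26 FPKM (-3.01 ± 0.24). EOMES passed the filter through the 8-cell libraries alone. FABP5, a fatty acid carrier, changed by -2.70 ± 0.23 and TFAP2C, an AP-2 factor, by -1.05 ± 0.18. LATS1, a kinase that restrains YAP1, changed by -0.87 ± 0.22.

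Of 15 tested genes of the primitive endoderm and of FGF reception, 10 rose and 2 fell (median 1.60). SPARC, a secreted matrix protein, rose from 53.6, 29.7 and 25.9 FPKM to 477, 598 and 431 FPKM (3.81 ± 0.27). RSPO3, an enhancer of WNT signalling, rose from at most 0.07 FPKM to 21.1, 23.9 and 17.2 FPKM (4.37 ± 0.23). FGFR4, a receptor of FGF, rose from 0.41 ± 0.281 to 20.7 ± 3.46 FPKM (3.95 ± 0.25). SPARC, RSPO3 and FGFR4 were picked for the size of their change, so the gap between their groups is a description. RSPO3 and FGFR4 passed the filter through the morula libraries alone. The transcription factor that defines the lineage, GATA6, moved against them, from 35.3, 22.6 and 25.5 FPKM to 6.12, 7.57 and 2.90 FPKM (-2.19 ± 0.32, adjusted p = 0.0002). GATA4 and FOXA2, of the same lineage, did not pass the filter.

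**Figure D4:**
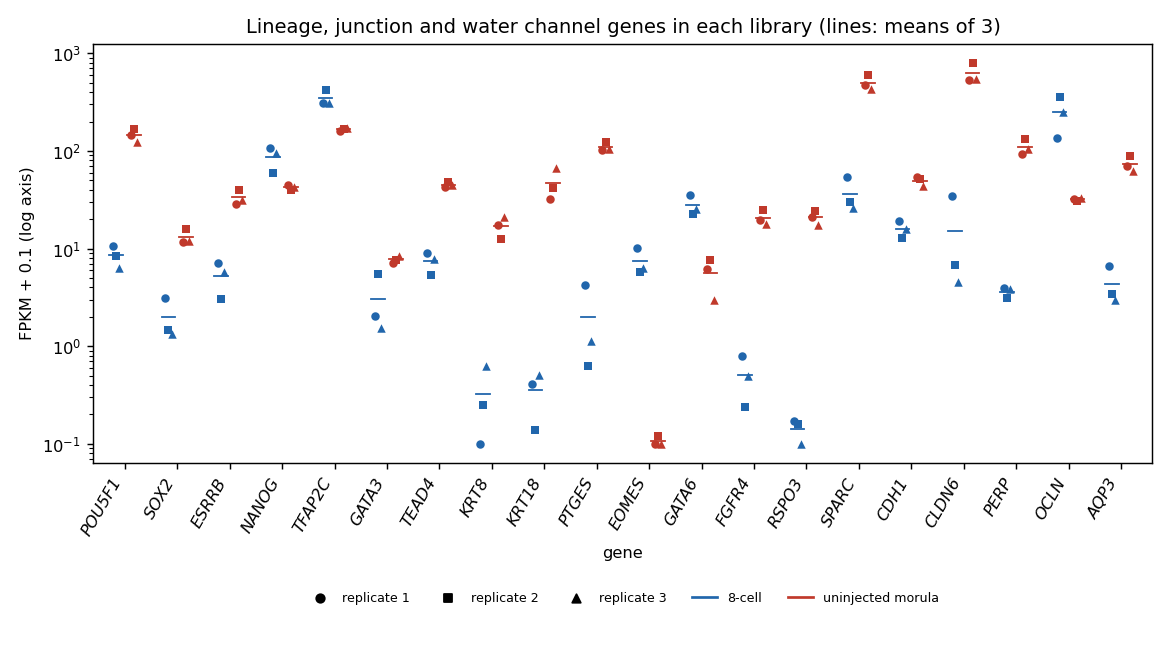
Points give FPKM + 0.1 on a log axis in each of the 3 8-cell libraries (blue) and 3 uninjected morula libraries (red), with the marker shape for the replicate and a line at the mean. KRT8, KRT18, RSPO3, PERP and CLDN6 were higher in every morula library than in any 8-cell library, and EOMES, GATA6, OCLN, NANOG and TFAP2C were lower in every morula library.

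Adhesion, polarity and tight junction genes were higher in morulae in 25 of 39 cases and lower in 7 (median 1.38). CLDN6, a claudin, rose from 34.2, 6.65 and 4.49 FPKM to 534, 796 and 550 FPKM (5.76 ± 0.56, adjusted p = 1.9e-05). CDH1, the cadherin of compaction, rose from 15.9 ± 3.12 to 49.5 ± 5.12 FPKM (1.59 ± 0.21). OCLN, the tight junction protein occludin, fell instead, from 136, 360 and 252 FPKM to 31.8, 30.7 and 32.8 FPKM (-2.82 ± 0.31), and PARD6B, a subunit of the apical polarity complex, fell from 11.3 ± 2.2 to 1.25 ± 0.397 FPKM (-2.46 ± 0.26). The atypical protein kinase C that binds it, PRKCI, rose from 2.61 ± 0.635 to 48.4 ± 5.62 FPKM (3.78 ± 0.23).

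Genes that move ions and water into the later blastocyst cavity split between the directions. All 10 tested were called, 4 higher and 6 lower (median -0.93). Beta subunits of the sodium pump went both ways: ATP1B1 fell from 14.1, 14.9 and 14.6 FPKM to 6.38, 2.80 and 3.30 FPKM (-1.65 ± 0.28). ATP1B3, of the same family, rose from 217 ± 45.6 to 536 ± 64.3 FPKM (1.32 ± 0.20). AQP3, a water and glycerol channel, rose from 6.58, 3.35 and 2.84 FPKM to 69.7, 88.7 and 61.8 FPKM (3.87 ± 0.29), and AQP11 fell from 218 ± 81.6 to 89.5 ± 27.1 FPKM (-1.24 ± 0.32). CA2, a carbonic anhydrase, and CFTR, a chloride channel, fell by 2.90 and 2.24. CA2 passed the filter through the 8-cell libraries alone.

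Nuclear-coded subunits of the respiratory chain rose almost as a body. Complex I, which takes electrons from NADH, had 35 of 37 tested subunits higher and none lower (median 2.04), and complexes II to V with cytochrome c had 39 of 43 rows higher and 1 lower (median 2.01). By complex, 3 of 4 rows rose in complex II, 9 of 9 in complex III, 10 of 12 in complex IV and 15 of 16 in complex V, the ATP synthase. UQCR11, a small subunit of complex III, was at 384, 468 and 588 FPKM in morulae and at 18.4, 22.3 and 22.1 FPKM in 8-cell embryos (4.44 ± 0.20, adjusted p = 5.2e-07). NDUFC2, of complex I, rose from 24.1 ± 11 to 344 ± 34.8 FPKM (3.86 ± 0.28). Not called were NDUFB2 and NDUFB9 of complex I, with log2 differences of -0.53 and 0.37, SDHD of complex II at 0.60, 1 row of COX7C at 0.44 and 1 row of ATP5E at 0.71, and COX7A2L, which helps join complexes, fell from 459 ± 35.2 to 289 ± 14.4 FPKM (-0.67 ± 0.16). COX7C has 3 rows of near-identical copies, of which 1 was listed at 0 in every 8-cell library and at 168 to 215 FPKM in morulae, so its values are uncertain. The complex I list made up 2.60% to 3.03% of summed FPKM in morulae and 1.0% to 1.2% in 8-cell embryos.

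Subunits coded on the mitochondrial genome did not share this pattern. Of the 13, 8 were higher and 2 lower (median 0.62), and together they held 12.4% to 14.1% of summed FPKM in morulae and 9.64% to 13.3% in 8-cell embryos. ND2 rose most, from 2520, 3070 and 2578 FPKM to 16967, 19989 and 17685 FPKM (2.74 ± 0.18), followed by ND3 (1.74 ± 0.21) and ND6 (1.2 ± 0.20). ATP8 fell from 7429, 15087 and 7961 FPKM to 2916, 2871 and 2443 FPKM (-1.82 ± 0.27), and CYTB from 15512 ± 3564 to 7181 ± 985 FPKM (-1.09 ± 0.22). The stages did not overlap for any of these 5 genes, nor for 74.5% of all genes tested. ATP6, COX3 and ND4L were not called, at 0.33, 0.20 and 0.23, and COX2, at 0.49 ± 0.18 (adjusted p = 0.03), lost its call in 4 of the 6 fits with a library left out. Most of these genes, though not ND6, are transcribed together from a shared molecule. ATP8 overlaps ATP6 and ND4L overlaps ND4, so their reads may be divided differently by the counting in the deposited files. The part of that counting in these differences was not tested.

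**Figure D5:**
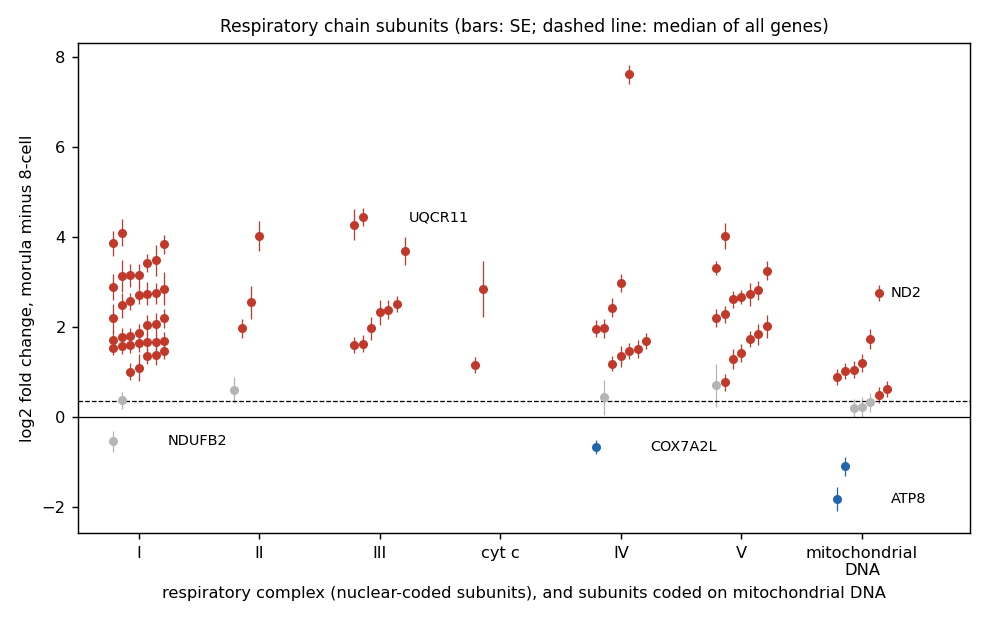
Each point is a respiratory chain subunit with its log2 fold change (morula minus 8-cell) and standard error, grouped by complex for nuclear-coded subunits and, at the right, for the 13 subunits coded on mitochondrial DNA; red was called higher, blue lower and grey neither, and the dashed line is the median of all genes tested (0.35). Nuclear-coded subunits lie mostly between 1 and 4, and the mitochondrial genes run from -1.82 (ATP8) to 2.74 (ND2).

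Genes of central carbon metabolism were mostly higher in morulae. Of 29 tested genes of the tricarboxylic acid cycle and pyruvate dehydrogenase, 22 rose and 3 fell (median 1.38), and of 26 genes of glycolysis, the pentose phosphate pathway and hexose uptake, 22 rose and 1 fell (median 1.86). IDH1, an isocitrate dehydrogenase, rose from 8.32, 4.75 and 6.08 FPKM to 60.2, 62.4 and 61.9 FPKM (3.11 ± 0.23), and GAPDH from 17.1, 15.1 and 12.9 FPKM to 330, 168 and 157 FPKM (3.70 ± 0.28). Both were picked for the size of their change, so the gap between their groups is a description. Copies of GAPDH elsewhere in the genome make its counting uncertain. The glucose transporters differed from each other in their calls: SLC2A1 rose from 5.56 ± 1.75 to 31.6 ± 9.69 FPKM (2.30 ± 0.30), while SLC2A3, at 189 ± 22.9 and 190 ± 36.4 FPKM, was not called (0.00 ± 0.19, adjusted p = 0.99); the difference between the transporters was not tested.

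Sterol, fatty acid and lipid droplet genes were higher in 21 of 32 cases and lower in 6 (median 1.25). PLIN2, which coats lipid droplets, rose from 13.7, 10.6 and 10.2 FPKM to 221, 200 and 182 FPKM (4.02 ± 0.20), and PLIN3 from at most 0.17 FPKM to 7.48 ± 0.728 FPKM. ACACA, the acetyl-CoA carboxylase that commits carbon to fatty acids, rose from 0.717 ± 0.27 to 19.6 ± 1.01 FPKM (3.60 ± 0.23). On the other side, CROT, which exports medium-chain acyl groups from peroxisomes, fell from 152 ± 25.1 to 1.90 ± 0.688 FPKM (-5.74 ± 0.24), and IDI1, of the sterol pathway, from 95.2 ± 14.7 to 15.1 ± 1.57 FPKM (-2.57 ± 0.20).

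Protein synthesis showed different movements at different steps. Cytosolic ribosomal proteins were higher in 64 of 87 rows and lower in 4 (median 0.93; 55 and 12 after quantile normalization) and made up 17.7% to 19.1% of summed FPKM in morulae against 10.9% to 13.9% in 8-cell embryos. Several of these proteins have near-identical copies, so single rows are uncertain. Genes that assemble ribosomes in the nucleolus went the other way: 20 of 48 fell and 12 rose (median -0.10), with 6 higher when morula replicate 1 was left out or after quantile normalization and 4 after median-of-ratios scaling. BRIX1, an assembly factor of the large subunit, was at 1161, 1322 and 1469 FPKM in 8-cell embryos and at 391, 249 and 353 FPKM in morulae (-2.01 ± 0.21), and DDX21, a nucleolar helicase, fell by 1.79. BOP1, of the same pathway, rose from 1.57 ± 0.437 to 10.1 ± 1.23 FPKM. Of 20 cytosolic aminoacyl-tRNA synthetases 16 rose and none fell (median 1.26), led by AARS, for alanine, from 2.58 ± 0.777 to 28.9 ± 6.38 FPKM. Initiation and elongation factors were near the background, with 24 of 62 higher and 15 lower (median 0.35), an order that turned to 18 and 23 under median-of-ratios scaling.

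Mitochondrial ribosomal proteins were higher in 47 of 77 cases and lower in 6 (median 0.89; 38 and 11 after median-of-ratios scaling). MRPL54 rose from 3.53, 0.99 and 2.24 FPKM to 42.6, 45.8 and 40.3 FPKM (3.83 ± 0.30), and MRPL1 fell from 452 ± 94.9 to 180 ± 33.3 FPKM (-1.32 ± 0.22).

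Genes of protein breakdown divided by system. Proteasome subunits rose in 27 of 37 cases and fell in 1 (median 0.98; 21 and 5 after quantile normalization), with PSMB9, a catalytic subunit of the immunoproteasome, at 31.4 ± 6.24 against 4.4 ± 2.2 FPKM. RING, TRIM, FBXO and USP genes of the ubiquitin system fell in 61 of 145 cases and rose in 47 (median -0.30); RNF11, a RING protein, was at 222, 209 and 219 FPKM in 8-cell embryos and at 14.3, 17.1 and 17.3 FPKM in morulae (-3.66 ± 0.18). Lysosomal enzymes and membrane proteins were higher in 25 of 32 cases and lower in 3 (median 1.86), and subunits of the vacuolar proton pump, which acidifies lysosomes, in 19 of 22 with none lower (median 2.13). CTSL1, the protease cathepsin L, rose from 14.8, 6.89 and 1.17 FPKM to 166, 196 and 265 FPKM (5.00 ± 0.58), and GLB1, the lysosomal beta-galactosidase, from 0.217 ± 0.0473 to 28.7 ± 8.90 FPKM (4.57 ± 0.26). ATP6V0D2, a subunit of the pump's membrane sector, rose from 22.1, 3.74 and 2.43 FPKM to 200, 266 and 227 FPKM (5.00 ± 0.58). MAN2B1, the lysosomal alpha-mannosidase, was an exception that fell from 111 ± 31.5 to 12.4 ± 0.565 FPKM (-3.02 ± 0.23).

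Autophagy genes rose in 15 of 30 cases and fell in 11 (median 0.54, with 11 and 11 after quantile normalization). These shares, 50% higher and 36.7% lower, stand beside 42.7% and 27.1% over all genes tested. The cargo receptors OPTN and SQSTM1 rose from 32.3 ± 7.79 to 343 ± 65.5 FPKM and from 6.69 ± 2.43 to 63.9 ± 9.18 FPKM (3.38 ± 0.23 and 3.11 ± 0.26). ATG14, of the kinase complex that starts the autophagosome, fell from 58.4, 57 and 63.8 FPKM to 6.32, 7.35 and 6.61 FPKM (-2.97 ± 0.19). BECN2, a beclin, fell by 7.40, while its relative BECN1 was not called (0.05 ± 0.22). In the secretory pathway 27 of 49 genes rose and 10 fell (median 0.66), or 55.1% and 20.4%. SSR4, a subunit of the translocon-associated complex, rose from 170 ± 44.0 to 1291 ± 97.3 FPKM. SRP19, of the signal recognition particle, fell from 1338 ± 297 to 256 ± 24.5 FPKM.

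Chromatin regulators were mixed. Most of those named were picked as the largest changes of a list in each direction, and 69.8% of all genes were called. Related subunits that moved apart are therefore a description. In polycomb complex 1, which ubiquitinates histone H2A, 6 of 16 genes rose and 6 fell (median -0.04). RNF2, a catalytic RING subunit, was at 195, 187 and 198 FPKM in 8-cell embryos and at 57.8, 21.2 and 29.9 FPKM in morulae (-2.50 ± 0.31), whereas its paralogue RING1 rose from 0.58, 1.15 and 0.58 FPKM to 5.61, 9.19 and 6.88 FPKM (2.21 ± 0.26). RNF2 was still the more abundant in every morula library on the FPKM scale. RYBP and YAF2, alternative partners of that subunit, fell by 2.57 and 2.45, and PHC1 and L3MBTL2 rose by 2.74 and 3.18. The list of polycomb complex 2, which methylates lysine 27 of histone H3, also holds demethylases of that site; 5 of its 10 tested genes fell and 2 rose (median -0.58), all 7 of them genes of the complex or its accessory subunits, and the demethylase KDM6A was not called (0.41 ± 0.26). JARID2, which helps recruit that complex, rose from 5.10, 3.47 and 4.62 FPKM to 15, 24.8 and 19.1 FPKM (1.92 ± 0.26), MTF2, another accessory subunit, fell from 60.6 ± 11.4 to 27 ± 3.13 FPKM (-1.13 ± 0.21), and the core subunit SUZ12 fell by 1.42.

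DNA methylation genes also moved in both directions. DNMT1, the maintenance methyltransferase, fell from 40.7, 48.6 and 76.4 FPKM to 10.4, 5.86 and 8.57 FPKM (-2.58 ± 0.29, adjusted p = 4e-05), and UHRF1, which guides it to replicated DNA, from 70.5, 37.2 and 68.8 FPKM to 2.91, 1.11 and 1.92 FPKM (-4.32 ± 0.32). DNMT3A, a de novo methyltransferase, rose from 0.48, 1.30 and 0.63 FPKM to 9.49, 12.7 and 10.5 FPKM (2.74 ± 0.26). All 3 separated the stages without overlap, as did 74.5% of all genes tested. DNMT3B and TET3 were under 1 FPKM in every library. Over the list 7 of 16 genes fell and 3 rose (median -0.59).

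Among other chromatin genes, HDAC8 and HDAC1, histone deacetylases, rose from 7.02 ± 2.00 to 72.7 ± 12.7 FPKM and from 44.1 ± 9.39 to 163 ± 19.7 FPKM (3.22 ± 0.25 and 1.88 ± 0.21). The acetyltransferases EP300 and KAT6B fell by 1.52 and 2.33. The list of acetylation genes had 12 of 29 higher, close to the share over all genes, and 4 lower; after quantile normalization the numbers were 9 and 11. Of 30 tested genes of the remodelling complexes 7 rose and 9 fell, or 5 and 12 after quantile normalization. SMARCA2, an ATPase of the BAF complex, fell from 17.4, 33.7 and 28 FPKM to 2.50, 2.25 and 3.30 FPKM (-2.85 ± 0.28). SMARCB1, a core subunit of the same complex, rose from 1.70 ± 0.862 to 18.6 ± 2.13 FPKM (2.90 ± 0.28). TRIM28, the corepressor of KRAB zinc finger proteins, rose from 25.9, 16.1 and 14.2 FPKM to 63.5, 83 and 58.4 FPKM (1.84 ± 0.26). Of 15 tested genes of H3K9 methylation 8 rose and 4 fell, or 6 and 5 after quantile normalization. KDM4A, an H3K9 demethylase, rose by 1.52 and CBX5, a reader of that mark, fell by 0.81.

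Cell cycle genes were called in both directions. Among cyclins, kinases and inhibitors the share higher, 42.9%, was near the 42.7% over all genes tested. The share lower was 37.1% against 27.1%. Of 35 cyclins, kinases and inhibitors 15 rose and 13 fell (median 0.33; 9 and 14 after quantile normalization). CDK1, the mitotic kinase, fell from 590, 652 and 781 FPKM to 272, 161 and 198 FPKM (-1.70 ± 0.22). CDK4, a kinase of G1, rose from 13.8, 7.95 and 11.2 FPKM to 74.4, 71.6 and 54.4 FPKM (2.52 ± 0.24), and so did its partner CCND2, from 0.35 ± 0.437 to 7.67 ± 3.52 FPKM, and the phosphatase CDC25A, from 0.95 ± 1.01 to 25.4 ± 6.67 FPKM (3.86 ± 0.37). Replication genes rose in 24 of 42 cases and fell in 4 (median 0.71; 21 and 8 after quantile normalization): RFC2, of the clamp loader, rose by 3.09 and GINS1 and MCM5, of the replicative helicase, by 2.87 and 2.28, whereas ORC4, of the origin recognition complex, and CDC6, which loads the helicase, fell by 2.27 and 1.70. Kinesins and centrosome genes fell in 24 of 52 cases and rose in 7 (median -0.53), among them KIF18A, a motor that positions chromosomes, from 64.7, 63.6 and 65 FPKM to 17.5, 8.37 and 12.4 FPKM (-2.30 ± 0.26).

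Signalling genes of the WNT, TGF-beta, BMP and Notch pathways were called in both directions, 8 higher and 10 lower of 27 (median 0.01; 5 and 12 after quantile normalization), with 6 lower when morula replicate 2 was left out. TCF7L2, a nuclear effector of WNT, fell from 126, 185 and 136 FPKM to 5.41, 3.28 and 3.03 FPKM (-4.94 ± 0.25), and LEF1, of the same family, from 6.55 ± 3.24 to 0.59 ± 0.97 FPKM (-2.32 ± 0.42). ACVR1, a BMP-type receptor, and SMAD1, its effector, rose from 1.2 ± 0.26 to 12.3 ± 4.19 FPKM and from 0.707 ± 0.318 to 6.12 ± 0.783 FPKM (2.56 ± 0.27 and 2.07 ± 0.24).

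Genes of peroxide defence, thioredoxin and glutathione rose in 23 of 33 cases and fell in 2 (median 1.34). GSTP1, a glutathione transferase, rose from 4.29, 4.28 and 2.30 FPKM to 84, 72.8 and 77.9 FPKM (4.13 ± 0.24). The 2 that fell were GSTM3, another glutathione transferase, from 1100 ± 306 to 101 ± 56.7 FPKM (-3.52 ± 0.35), and GCLC, the rate-limiting enzyme of glutathione synthesis, from 32.7 ± 16.5 to 7.38 ± 0.762 FPKM (-1.88 ± 0.35). Among chaperones, 20 of 35 rose and 5 fell (median 0.65): HSPE1 and HSPD1, the mitochondrial chaperonin pair, rose by 2.77 and 2.72, and DNAJB1, a heat-inducible partner of HSP70, fell from 329, 193 and 409 FPKM to 27.5, 22.1 and 19.8 FPKM (-3.63 ± 0.28).

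Genes of the BCL2 family, caspases and damage response fell in 11 of 26 cases and rose in 7 (median -0.41). GADD45A, a stress-induced gene of DNA repair and growth arrest, fell from 114, 181 and 122 FPKM to 24.9, 22.7 and 24.6 FPKM (-2.45 ± 0.22). CASP2, a caspase, and BCL2L11, a pro-apoptotic family member, fell by 2.10 and 1.80, and BAD, another, rose by 1.74. CASP2 passed the filter through the 8-cell libraries alone. Of 7 imprinted genes tested, PHLDA2 and IMPACT fell by 2.63 and 2.46, MEST fell by 0.91 (adjusted p = 0.033) in a call lost without morula replicate 2, morula replicate 3 or 8-cell replicate 2, and GNAS and NDN rose by 2.08 and 1.49.

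Markers of other cells were checked because fibroblasts are the nuclear donors and cumulus cells surround the oocytes used. Of 16 tested fibroblast markers 10 rose and 4 fell (median 1.39), and the list held 0.114% to 0.117% of summed FPKM in morulae against 0.0141% to 0.0241% in 8-cell embryos. Those that rose most were FN1, fibronectin (86.2 to 124 FPKM in morulae against 0.16 to 1.5), TIMP1, a protease inhibitor (5.02 ± 0.34), and TPM1, a tropomyosin (4.45 ± 0.27); LGALS1, TPM2, CYR61, S100A4, THY1, CTGF and CALD1 rose by 2.80 to 0.82. The members that fell were LUM, FBN1, COL5A1 and ACTA2. The collagens COL1A1, COL1A2 and COL3A1 and the intermediate filament gene VIM were under 1 FPKM in every morula library, and in 8-cell replicate 2 they were at 5.09, 2.68, 2.48 and 2.93 FPKM. LUM, a matrix proteoglycan, was also highest there, at 29.1 FPKM against 2.21 and 5.59 FPKM in the other 8-cell libraries, and its fall of 1.95 in morulae (adjusted p = 0.027) was not called without that library, at -1.04. Of 6 tested cumulus and granulosa markers 3 fell and 2 rose. HAS2, a hyaluronan synthase, fell from 5.57, 19.8 and 9.34 FPKM in 8-cell embryos to 2.2, 0.04 and 0.67 FPKM in morulae. TNFAIP6 fell from 7.40 ± 1.95 to 2.76 ± 0.368 FPKM. SERPINE2 rose, by 1.61 to 2.18 log2 units over the alternative fits. The list held 0.00689% to 0.0119% of summed FPKM in morulae and 0.00469% to 0.00687% in 8-cell embryos. Of 6 blood markers 1 rose and 1 fell; HBA, an alpha-globin, was at 143 ± 41.1 FPKM in morulae and 83.1 ± 22.5 FPKM in 8-cell embryos, a call (0.77 ± 0.26, adjusted p = 0.024) lost in 4 of the 6 fits with a library left out. The part of such cells in the differences above was not tested.

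Some genes were listed at 0 in all libraries of a stage. Counting genes that averaged 5 FPKM or more at the other stage, 25 were listed at 0 in the 8-cell libraries and 10 in the morula libraries. MT1A, a metallothionein, at 108, 67.4 and 83.1 FPKM in morulae, PEPD, a dipeptidase, at 48.2, 119 and 48 FPKM, and AMOTL2, a Hippo pathway scaffold, at 7.55, 10.5 and 10.7 FPKM were among the former. ELAVL3, an RNA-binding protein best known in neurons, at 15.9, 15.4 and 17.8 FPKM in 8-cell embryos, was among the latter. An exact 0 in such files can also be a failed estimate, so no fold is given.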

How the data were processed

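The deposited files hold 1 FPKM value per gene and library, to 2 decimals, already computed by the authors. The submitters' processing notes name the bovine build UMD3.1, the aligners HISAT 0.1.6 and Bowtie2 2.2.5, the quantifiers RSEM 1.2.12 and StringTie 1.0.4, and bcl2fastq 2.16; their order, and which of them made which file, are not stated there. The values do not give depth, so no count model was used.

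The 3 uninjected morula files and 3 8-cell files were joined by gene identifier (16713 and 16674 genes listed, 16129 shared, 291 with different symbols). Rows with no annotated gene, 3038 in the file of morula replicate 1, were left out. Values were compared as log2(FPKM + 1) with limma 3.58.1 (trend, R 4.3.3), all genes adjusted together, over the 6 libraries without a replicate term. A fold change on this scale understates the change of low genes. The script was tested on simulated data.

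Named genes are the 10 highest and 10 lowest moderated statistics among called genes whose groups did not overlap. They include up to 3 members of each of 48 lists in each direction by size of change (averaging 5 FPKM or more at the higher stage). The 10 most abundant nuclear-coded genes of each stage and a set of stage markers were named too. Others named were chosen after their values were seen. The comparison, lists and named sets were chosen with earlier results of these data known. Lists are described by counts and medians, with no set test. Alternatives were 2 other pseudocounts, 2 other filters, 3 other scalings, a replicate block, each library left out and a threshold of 1 log2 unit. Promoter and protein sequences were not used here, and some genes are not reported.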

Additional observations from a re-analysis of the deposited data

Results flagged for a closer look

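Some data lie outside the comparison of shared genes. There were 29 genes at 5 FPKM or more in all 3 uninjected morula libraries that only the morula files list, among them RPS29, a ribosomal protein, at 1719, 2422 and 2250 FPKM, and RPS27L at 204, 176 and 240 FPKM. In the other direction 2 genes, ENSBTAG00000005540.4 at 16.3, 17.0 and 14.4 FPKM and ENSBTAG00000007296.4 at 7.85, 6.94 and 7.26 FPKM, reached that level in all 3 8-cell libraries and are listed in the 8-cell files only. A gene that a set of files does not list cannot be read as absent at that stage, and whether the lists differ through annotation was not tested. The file of morula replicate 1 also holds 3038 rows with no annotated gene, of which 1824 were at 1 FPKM or more, and which make up 4.34% of that library's summed FPKM; the other 2 files of the group hold none. Groups of 3 libraries are too small for a formal test of a single outlying value, and none was run.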

How the results depend on the processing

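The counts of genes higher and lower stayed within 1.5 times of those reported under all 15 alternatives. Leaving out each library in turn gave 3836 to 4322 higher and 2325 to 2708 lower. Pseudocounts of 0.1 and 0.5 gave 4190 and 2681, and 4264 and 2706; no filter 4855 and 2961; a filter of 5 FPKM 3102 and 1984; rescaling to TPM 3862 and 3042. The replicate numbers do not pair the stages: deviations of same-numbered libraries correlated at -0.04, -0.003 and -0.001, and the replicate block gave 4243 and 2700. Of 297 named fold changes, 32 lost their call under at least 1 alternative, the threshold of 1 log2 unit included, and 3 gained one. List counts were less steady than the totals: 51 of 96 moved by more than 1.5 times, or to or from 0, under at least 1 alternative. Among the named fold changes, 4 changed sign under an alternative, none of them called. COX3 was -0.13 under median-of-ratios scaling, where EZH2 was -0.14 and ND4L -0.10; under quantile normalization EZH2 was -0.0083 and ND4L -0.15. SLC2A3 was -0.18 after rescaling to TPM, -0.18 after quantile normalization, -0.33 after median-of-ratios scaling, and from -0.095 to 0.15 with a library left out, with its negative values of -0.094, -0.095 and -0.049 without morula replicate 2, 8-cell replicate 2 and 8-cell replicate 3; the cause was not tested. The planned motif and protein length comparison was not run. Low FPKM values carry few decimals, and the depth behind them is unknown.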

Other observations

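Further lists were called in both directions. On the values as deposited, the zinc finger, spliceosome and H3K4 lists had both shares under those of all genes tested. Those were 42.7% higher and 27.1% lower. Zinc finger genes named ZNF were higher in 37 of 166 cases and lower in 41 (median 0.11), a balance that became 19 and 61 after quantile normalization; ZNF428 rose from 0.803 ± 0.739 to 16.6 ± 1.84 FPKM (SD, n = 3) and ZNF664 fell from 11.1 ± 1.68 to 0.817 ± 0.695 FPKM. Core spliceosome proteins were higher in 14 of 55 cases and lower in 11 (median 0.06; 13 and 17 after quantile normalization), with PRPF38B, a pre-mRNA splicing factor, falling from 74.8 ± 1.92 to 26.0 ± 0.962 FPKM. Subunits of RNA polymerase II, Mediator and TFIID were higher in 13 of 62 cases and lower in 19 (median 0.11; 7 and 22 after quantile normalization, where the median was -0.11). POLR2H, a subunit shared by the nuclear polymerases, rose from 31.0 ± 9.23 to 136 ± 16.8 FPKM, and TAF7L, a germ-cell relative of a TFIID subunit, fell from 5.18 ± 3.44 to 0.13 ± 0.168 FPKM. H3K4 methylation genes were higher in 5 of 18 cases and lower in 4, which became 3 and 7 under quantile normalization and under median-of-ratios scaling: KMT2C, a methyltransferase, rose from 16.2 ± 3.67 to 44.9 ± 9.66 FPKM and ASH2L, a core subunit of these enzymes, fell from 20.8 ± 4.18 to 6.15 ± 2.24 FPKM. Ubiquitin-conjugating enzymes were higher in 9 of 29 cases and lower in 6 (6 and 7 under median-of-ratios scaling), both shares under those of all genes, with UBE2E3 at 119 ± 21.6 against 26.0 ± 6.17 FPKM. Of 5 sperm and testis markers tested, 3 were higher and 1 lower, with TNP2, a transition protein of sperm chromatin, at 7.44, 5.90 and 7.84 FPKM in morulae and 0.35, 1.37 and 0 FPKM in 8-cell embryos.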
